A study of Danio rerio with 28 samples.

Results

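Newly made RNA was compared between the 256-cell stage (256c) and the 1024-cell stage (1024c) in zebrafish embryos that lack the mir430 genes (mir430-/-). The comparison rests on 6 of the 28 libraries of the series, chosen by their labels: 3 mutant libraries at 256c and 3 at 1024c. Whole embryos were grown at the same temperature, had their chorions removed with pronase and received s4UTP, a sulfur-bearing nucleotide that marks new transcripts. Marked RNA was biotinylated, captured on beads and treated with iodoacetamide (IAA). All embryos of both mutant groups carried the homozygous deletion, and per the labels all were also injected with miR430. The 6 wild type libraries used for comparison, 3 at each stage, had s4UTP and IAA but no miR430 injection, so the deletion and the injection differ together between the genotypes. The labels describe the libraries as biological replicates without naming clutches, and the p-values therefore reflect library-to-library spread only. In RNA of whole embryos, fewer cells of a type and less RNA per cell cannot be told apart.

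During zygotic genome activation the embryo begins to transcribe its own genes, which take over from RNA that the mother stored in the egg. In zebrafish, the maternal factors Nanog, Pou5f3 and Sox19b open and activate many of the first genes, and the clustered mir430 genes on chromosome 4 are among the earliest and strongest to be transcribed. Mature miR-430 then speeds the clearance of maternal mRNA. Cdk9, the kinase of P-TEFb, releases paused RNA polymerase II into elongation.

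The mutant libraries held between 258302 and 861335 counts on nuclear genes, and their mitochondrial counts were set aside before scaling. Nuclear genes took 2.46%, 7.46% and 5.59% of all counts in the 3 libraries at 256c, and 8.45%, 4.08% and 6.24% in those at 1024c. The 2 ranges overlapped, and the means of 5.17% ± 2.52 and 6.25% ± 2.19 (SD, n = 3) were not separated by the spread (exact permutation test, two-sided, p = 0.6, where 0.1 is the smallest p possible). In wild type the nuclear share went from 2.15% ± 0.804 to 6.24% ± 1.00 (SD, n = 3), with no overlap and the smallest possible exact p of 0.1. The difference between the 2 steps on the log2 scale was -1.25 (exact permutation test of genotype labels within each stage, p = 0.15). That permutation supposes no genotype difference at either stage, so its p does not test equal steps alone. The number of nuclear genes with at least 1 count was 13562, 16565 and 16929 at 256c and 15652, 17139 and 17832 at 1024c (exact permutation test, p = 0.5).

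The mir430 genes on chromosome 4 together had 59, 1 and 1 counts in the mutant libraries at 256c and 55, 14 and 4 counts at 1024c. The highest of these was 0.0228% of nuclear counts (95% exact binomial interval 0.0174 to 0.0295%, counting error only). In wild type the same genes took 4.33 to 14.2% at 256c and 7.87 to 28.0% at 1024c. The group was near 0 in every mutant library and abundant in every wild type library, as labelled. Its 54 copies were summed because reads cannot be assigned to single near-identical copies.

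Whole embryos of these stages hold no differentiated tissue, and most markers of later tissues were at or near 0. Of 20 such genes, among them globins, muscle myosins and lens and pancreas genes, 3 passed the low-count filter. The other 17 had at most 16 counts summed over the 3 libraries of a stage, with myod1, a muscle regulator, the highest at 3 counts and then 16. Those that passed were elavl3, a neuronal RNA-binding protein gene, actc1b, a muscle actin gene, and tfa, a transferrin gene. Elavl3 had 0, 9.77 and 3.90 CPM at 256c and 7.28, 108 and 10.1 CPM at 1024c, and tfa 14.1, 4.19 and 15.6 CPM and then 21.8, 199 and 2.88 CPM. Both were high in replicate 2 at 1024c, by over 8-fold against replicate 3. Actc1b stayed between 1.46 and 27.3 CPM in the 6 libraries.

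**Figure D1:**
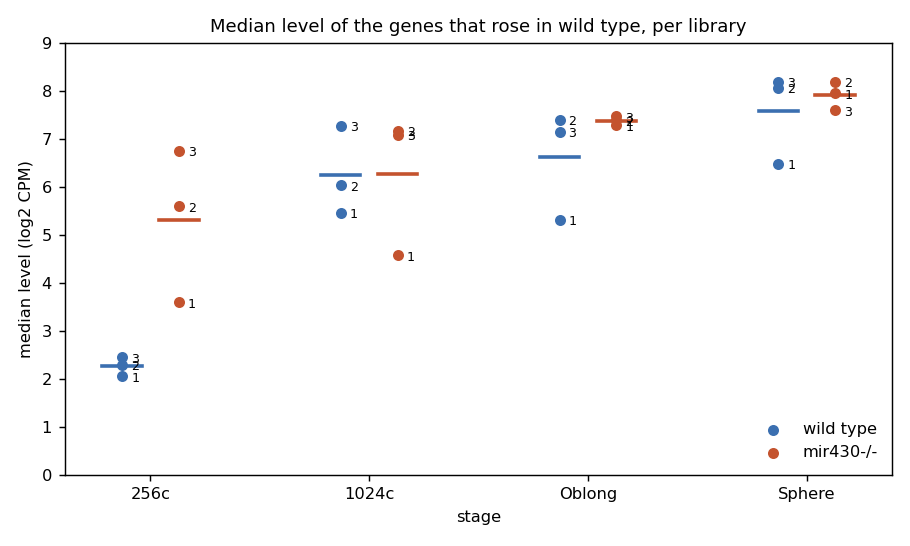
Median level (log2 CPM, nuclear scaling) of the 842 genes with a rise in wild type, for every library at 4 stages. Points are libraries with their replicate numbers and bars are group means. The wild type libraries used to choose these genes separate completely between 256c and 1024c, whereas the mutant libraries at 256c spread from 3.59 to 6.75 and those at 1024c from 4.57 to 7.17.

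Libraries of one stage differed widely from each other, and this is needed to read every result that follows. The 842 genes whose level rose between 256c and 1024c in wild type embryos, at an adjusted p under 0.05 (edgeR), served as a gauge of zygotic transcription. They were chosen by the wild type contrast alone. The filter, scaling and estimate of spread behind that contrast came from all 24 IAA libraries, mutant ones included. Their median level in the mutant was 3.59, 5.59 and 6.75 log2 CPM in replicates 1, 2 and 3 at 256c, and 4.57, 7.17 and 7.08 at 1024c. They took 6.46%, 20.9% and 33.9% of nuclear counts at 256c and 12.2%, 39.8% and 41.2% at 1024c. Replicate 1 was the lowest library at both stages, and replicate 1 at 1024c lay below replicate 3 at 256c in 796 of the 842 genes (94.5%). Within its stage, replicate 1 was the lowest library in 91.1% of the 842 genes at 256c and 94.5% at 1024c. Over all tested genes these shares were 42.6% and 41.6%. Gene ranks were compared over tested genes with a mean above 3 log2 CPM. Replicate 1 at 1024c was most like replicate 1 at 256c (Spearman's rank correlation 0.908, across genes). It was less like replicates 2 and 3 of its own stage (0.495 and 0.586). Replicate 3 at 1024c was likewise most like replicate 3 at 256c (0.841), and less like replicates 1 and 2 of its own stage (0.586 and 0.724). Replicate 2 at 1024c was most like replicate 3 of its own stage (0.724). It stood apart by high levels of several p53 response and immediate early genes, as described further on.

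Against this spread, no gene passed the test for a change between 256c and 1024c in the mutant. Of 13168 nuclear genes tested, 0 were higher and 0 lower at an adjusted p under 0.05 (edgeR's quasi-likelihood test with Benjamini-Hochberg adjustment), so percent called was 0 in each direction, and the smallest adjusted p was 0.680. At an unadjusted p under 0.05, 653 genes were higher at 1024c (4.96% of those tested) and 101 were lower (0.767%). The 3 libraries at 1024c lay above all 3 at 256c for 352 genes (2.67%) and below them for 338 (2.57%). In all, 7111 genes (54%) had a positive log2 fold change, the median over all genes was 0.08 and the median standard error was 0.80. In the wild type step, read from the same fit, 842 genes rose (6.39%) and 1 fell (0.00759%), with 3059 non-overlapping higher genes (23.2%) and a median standard error of 0.83.

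Other tools on the same counts did make calls. DESeq2 called 17 genes higher (0.211% of the 8057 to which it gave an adjusted p) and 1 lower (0.0124%). Limma's voom with library quality weights called 367 higher (2.79%) and 28 lower (0.213%). EdgeR without the low-count filter called 85 higher and 1 lower. Under every setting that left out a single mutant library, edgeR again called 0 genes in each direction.

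The 842 genes that rose in wild type did not pass in the mutant either, although most were somewhat higher at 1024c. Of these genes, 785 (93.2%, against 54% of all tested genes) had a positive log2 fold change in the mutant, 93 (11%) were higher at an unadjusted p under 0.05 and 0 were lower. Their median log2 fold change was 0.84 in the mutant, with a median standard error of 0.91, and 5.02 in wild type, where they had been selected. The mutant libraries of the 2 stages were separated without overlap for 20 of them (2.38%, close to the 2.67% of all tested genes). The median depended on single libraries, being 0.39 without replicate 1 at 256c and 1.91 without replicate 3 at 256c. It was 0.84 without replicate 1 of both stages.

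**Figure D2:**
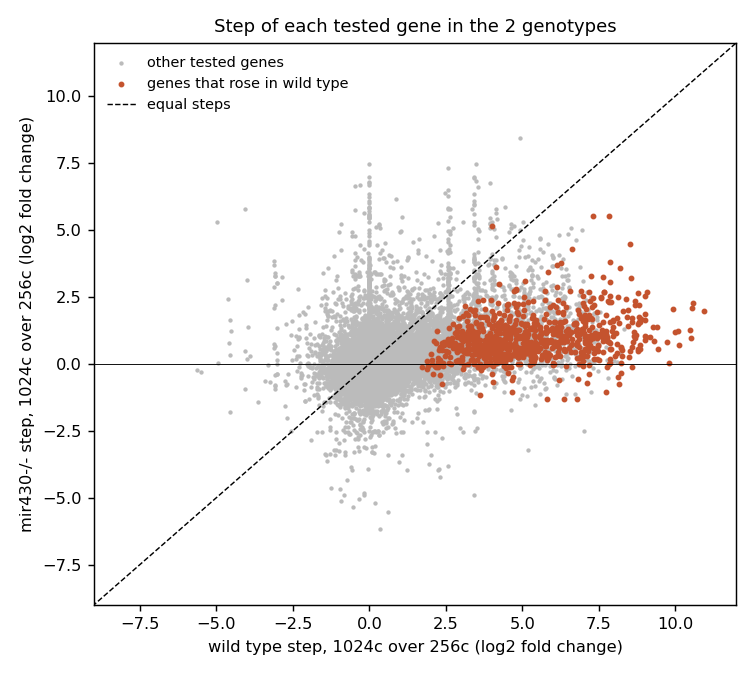
Log2 fold change from 256c to 1024c in mir430-/- embryos (vertical) against wild type embryos (horizontal) for 13168 tested genes, 1 point a gene. The 842 genes that rose in wild type, in colour, lie mostly above 0 in the mutant (785 of 842) and below the dashed line of equal steps.

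The step itself was then compared between genotypes by an interaction term in the same fit. No gene passed (0 higher and 0 lower of 13168, 0 percent in each direction, smallest adjusted p 0.345). At an unadjusted p under 0.05 the mutant step was larger for 50 genes (0.38%) and smaller for 1048 (7.96%), and the median difference over all genes was -0.43. DESeq2 called 1 gene higher (0.0456% of the 2191 with an adjusted p) and 191 lower (8.72%), voom called 0 in each direction, and edgeR on total counts that include mitochondrial genes called 114 lower.

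Described here are 4 genes with a small unadjusted p for this difference, picked after their values were seen, which were already high at 256c in 2 of the 3 mutant libraries. The first is net1, at 22.1, 257 and 502 CPM at 256c and 108, 1501 and 820 CPM at 1024c in the mutant. In wild type it was at 0, 0 and 3.46 CPM and then 269, 361 and 1014 CPM. The wild type groups were far apart, while the mutant groups overlapped. Its step was -7.36 ± 1.76 (SE, log2) smaller in the mutant, with an adjusted p of 0.345 by edgeR, and DESeq2 called it.

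Klf2a, a Krüppel-like factor, had 82.3, 961 and 1464 CPM at 256c and 291, 3956 and 1792 CPM at 1024c in the mutant, against 4.30, 8.73 and 24.2 CPM and then 585, 1032 and 2883 CPM in wild type. The difference of its steps was -5.69 ± 1.48 (SE, log2). Foxd5, a forkhead factor of the early neural plate, had 68.3, 405 and 1168 CPM and then 141, 1802 and 1551 CPM in the mutant. In wild type foxd5 was at 4.30 to 8.73 CPM at 256c and 241 to 1114 CPM at 1024c. Sox19a, a SoxB1 factor, had 54.2, 274 and 609 CPM and then 127, 881 and 867 CPM, with a difference of -5.28 ± 1.38. In each of these 3 genes mutant replicates 2 and 3 at 256c stood above replicate 1 at 1024c, so the stages overlapped, and none passed in edgeR (adjusted p 0.345). All of net1, klf2a, foxd5 and sox19a rose in wild type, and their differences were also called by DESeq2.

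Maternal activators come first in the order of the pathway. Of 11 tested members of this group, 0 were called, 8 had a positive log2 fold change and the median was 0.48. Nanog, a homeodomain activator of the first zygotic genes, had 430, 1658 and 3282 CPM at 256c and 697, 4887 and 5969 CPM at 1024c. Pou5f3, its POU-domain partner, had 498, 442 and 972 CPM and then 617, 883 and 1322 CPM. Sox19b, the maternal SoxB1 factor, had 165, 169 and 383 CPM and then 299.9, 208 and 404 CPM. The stages overlapped for all 3, with log2 fold changes of 1.11 ± 0.89, 0.56 ± 0.68 and 0.35 ± 0.60 (SE). Foxh1, a partner of Nodal signalling that rose in wild type, had 189, 777 and 2154 CPM and then 418, 2585 and 2199 CPM in the mutant.

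P-TEFb, bromodomain (BET) and elongation factor genes stayed near the median of all genes. Of 36 tested, 0 were called, 16 had a positive log2 fold change and the median was -0.05, or 0.35 on total counts that include mitochondrial genes. Cdk9 itself had 263, 223 and 328 CPM at 256c and 393, 103 and 236 CPM at 1024c, with a log2 fold change of -0.15 ± 0.59 whose sign changed with 1 of the scalings and with 2 of the left-out libraries. Replicate 2 at 1024c was the lowest and replicate 1 at 1024c the highest of the 6. Brd2a, a BET reader of acetylated histones and the 1 member called in wild type, had 524, 3679 and 10100 CPM and then 1149, 7766 and 11310 CPM. Cdc73, a PAF1 complex subunit, was the member with the smallest p and was lower at 1024c without overlap, at 14.1, 32.1 and 21.5 CPM and then 7.28, 9.57 and 10.1 CPM (log2 fold change -1.34 ± 0.61, adjusted p 0.855, edgeR).

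Factors that pattern the embryo had mostly positive log2 fold changes, and none passed in edgeR. All 11 tested ventral and dorsal fate factors had a positive log2 fold change, with a median of 0.57 against 5.50 in wild type, where 6 were called. Over all tested genes 6.39% were called higher in wild type, which is the share to set beside such counts in every list. The median was 0.14 without replicate 1 at 256c and 1.90 without replicate 3 at 256c. Gata2a, a ventral ectoderm and blood factor, had 110, 525 and 1367 CPM at 256c and 266, 2647 and 1339 CPM at 1024c. Vox, a ventral repressor of organizer genes, had 450, 2729 and 10990 CPM and then 1154, 6976 and 9093 CPM, and its log2 fold change of 0.28 ± 1.04 was negative without replicate 1 at 256c or without replicate 3 at 1024c. In both genes replicate 3 at 256c lay above replicate 1 at 1024c, so that the stages overlapped. Gsc, the organizer homeobox gene, had 30.1, 395 and 1281 CPM and then 108, 1663 and 1151 CPM.

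Of 22 anterior and neural factors, 19 had a positive log2 fold change (median 0.94), 0 were called and 11 were called in wild type (all tested genes 6.39%). That median ranged from 0.53 without replicate 1 at 256c to 1.89 without replicate 3 at 256c. Zic2b, a zinc finger factor of the neural plate, had 14.1, 124 and 223 CPM and then 32.0, 819 and 636 CPM in the mutant. Its log2 fold change there was 2.04 ± 0.97 (SE, adjusted p 0.870, edgeR). In wild type it had 0 CPM in all 3 libraries at 256c and 47.7, 103 and 211 CPM at 1024c. The fitted wild type log2 fold change of 9.92 ± 1.93 thus has no measured base level and is not a measured ratio. Her7, a Hairy-related repressor of the segmentation clock, had 68.3, 219 and 652 CPM and then 91.7, 407 and 495 CPM, a log2 fold change of 0.08 ± 0.72. The her and hes list as a whole (11 tested, 0 called, 4 called in wild type) had a median of 0.35, which was -0.25 without replicate 3 at 1024c and 1.60 without replicate 3 at 256c. Among 9 klf factors the median was 0.78, 0.24 without replicate 1 at 256c and 1.46 without replicate 3 at 256c, and klf17, a factor of the early ectoderm and hatching gland, had 1158, 10040 and 21180 CPM and then 1764, 14350 and 13280 CPM.

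All 14 tested mesendoderm factors had a positive log2 fold change, with a median of 0.93 against 5.50 in wild type, where 7 were called (all tested genes 6.39%). The median was 0.48 without replicate 2 at 1024c and 2.03 without replicate 3 at 256c. Tbx16, a T-box factor of mesoderm, had 6.02, 20.9 and 44.9 CPM at 256c and 17.5, 692 and 221 CPM at 1024c. It was the member with the smallest p (log2 fold change 3.69 ± 1.05, adjusted p 0.74 in edgeR), and DESeq2 (adjusted p 0.0401) and voom (adjusted p 0.00895) called it. Only replicate 1 at 1024c lay within the range of 256c. Tbxta, the Brachyury gene of axial mesoderm, had 10.04, 65.6 and 164 CPM and then 20.4, 366 and 155 CPM.

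**Figure D3:**
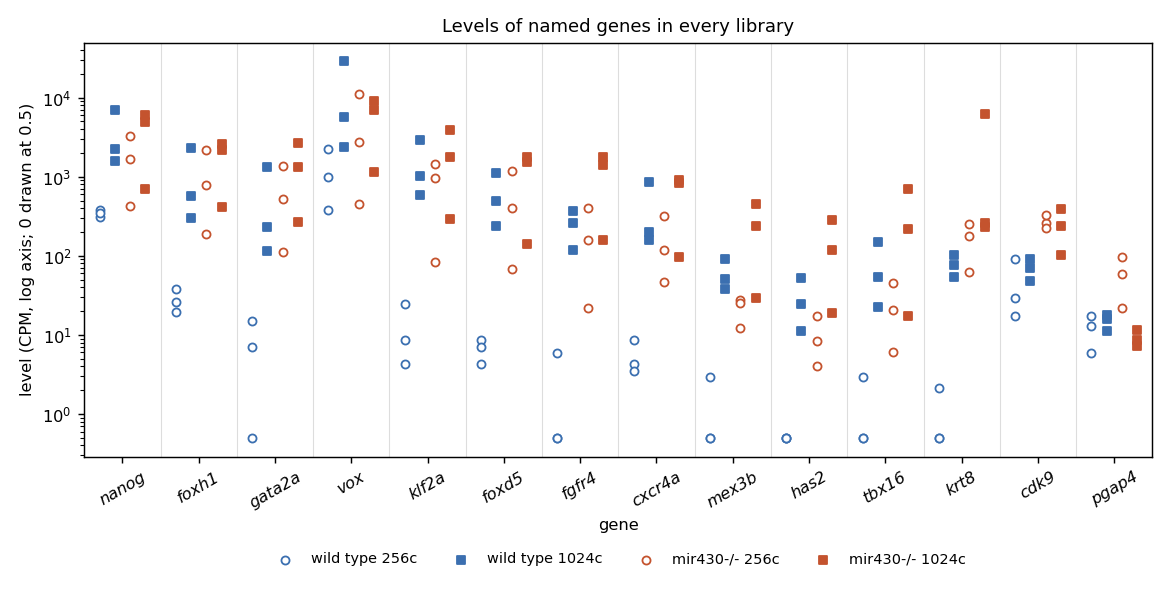
Levels (CPM, log axis, values of 0 drawn at 0.5) of 14 named genes in each of the 12 libraries, with open circles for 256c, filled squares for 1024c and colour for genotype. In the mutant most genes overlap between stages, as for gata2a at 110 to 1367 CPM at 256c and 266 to 2647 CPM at 1024c. Mex3b, has2 and pgap4 are the 3 genes shown whose mutant stages do not overlap.

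Signalling genes gave the same picture. The BMP list had 11 tested members and a median of 0.92, the FGF list 13 and 0.90, the Wnt list 15 and 0.65, and the Nodal list 14 and 0.17, a median that was negative when nuclear totals set the scale. Without replicate 3 at 256c these medians were 1.76, 2.04, 1.76 and 0.90. They were 0.51 and 0.25 for BMP and Wnt without replicate 2 at 1024c, and 0.63 and -0.05 for FGF and Nodal without replicate 3 at 1024c. None of their members was called by edgeR. Bmp2b, the ventralising ligand, had 78.3, 214 and 576 CPM at 256c and 243, 2621 and 952 CPM at 1024c. Voom called it higher along with bmp7a and the receptor gene bmpr1aa (27.3% of the list, beside 2.79% of all genes). Fgf3 had 0, 6.98 and 23.4 CPM and then 1.46, 108 and 50.3 CPM, and the FGF receptor gene fgfr4 had 22.1, 160 and 402 CPM and then 157, 1800 and 1402 CPM. Voom called both, along with etv5b, a transcriptional target of FGF signalling (23.1% of the list). In these genes replicates 2 and 3 at 1024c were the highest of the 6 libraries, and replicate 1 at 1024c lay within the range of 256c.

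Nodal signals through the co-receptor Tdgf1. Tdgf1 had 355, 463 and 931 CPM at 256c and 494, 431 and 1201 CPM at 1024c, a log2 fold change of 0.28 ± 0.75 that was negative without replicate 3 at 1024c. The nodal ligand gene ndr1 had 110, 246 and 1232 CPM and then 202, 799 and 866 CPM. Skila, a repressor of Smad signalling, was the Nodal list member with the smallest p, at 32.1, 62.8 and 111 CPM and then 102, 534 and 87.7 CPM (1.80 ± 0.75, adjusted p 0.813, edgeR). Among Wnt genes sfrp1a, a secreted antagonist, had 2.01, 27.9 and 29.3 CPM and then 11.7, 251 and 125 CPM. Voom called sfrp1a and sp5l, a Wnt target, higher (13.3% of the list, beside 2.79% of all genes).

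Apelin and chemokine genes, which guide cell movement at gastrulation, had a median of 1.82, the highest among lists with at least 5 tested members, and 0 calls by edgeR. All 8 had a positive log2 fold change. Cxcr4a, a chemokine receptor gene, had 46.2, 117 and 314 CPM and then 96.1, 840 and 913 CPM, and voom called it. Cxcl12b, a chemokine, had 10.04, 5.58 and 3.90 CPM and then 27.7, 462 and 0 CPM. The 2 late libraries other than replicate 2 thus disagreed in direction for cxcl12b, and the list median dropped from 1.82 to 0.56 without replicate 2 at 1024c.

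Extraembryonic lineages were represented by the enveloping layer, the outer epithelium, and by the yolk syncytial layer, which feeds the embryo from the yolk. Of 18 enveloping layer and 14 yolk syncytial genes listed, 8 each passed the low-count filter. The others had at most 10 and 2 counts, respectively, summed over the 3 libraries of a stage. The 8 tested enveloping layer genes had a median of 1.29 against 6.25 in wild type, and the 8 yolk syncytial genes 1.45 against 3.97. Without replicate 2 at 1024c these medians were 0.35 and 0.80, and without replicate 3 at 256c 2.28 and 2.24. Krt8, a keratin, had 62.2, 179 and 252 CPM at 256c and 259, 6244 and 234 CPM at 1024c. One library, replicate 2, set its fold change of 3.77 ± 1.12 (adjusted p 0.74 in edgeR, 0.0401 in DESeq2). Grhl3, a grainyhead factor of the enveloping layer, had 203, 3124 and 5338 CPM and then 501, 5847 and 6651 CPM. Apoba, an apolipoprotein gene, had 2.01, 4.19 and 21.5 CPM and then 4.37, 86.2 and 82.0 CPM and was called by voom. Slc26a1, a sulfate transporter gene of the yolk syncytial list, had no count at 256c and 1.46, 11.97 and 8.63 CPM at 1024c, at least 3.84-fold higher against a floor of 3 counts over the 3 libraries.

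Cell cycle genes had a median of 0.60 over 28 tested members (0.18 without replicate 2 at 1024c, 1.37 without replicate 3 at 256c), 0 called by edgeR. Ccnd1, the G1 cyclin D1, had 16.1, 44.6 and 123 CPM and then 51.0, 618 and 532 CPM, and ccne2, a cyclin E, had 8.03, 13.9 and 87.9 CPM and then 124, 653 and 82.0 CPM. Voom called both. Znf genes on chromosome 4, a large zinc finger family transcribed at activation, had a positive log2 fold change in 136 of 151 tested. Their median was 0.79, against 4.01 in wild type, where 50 were called (all tested genes 6.39%). The mutant median was 0.31 without replicate 1 at 256c and 1.79 without replicate 3 at 256c. Summed over the family they stood at 1648, 14060 and 31570 CPM at 256c and 4309, 34110 and 44400 CPM at 1024c. The znf genes elsewhere had a median of 0.36 over 144 tested, histone genes 0.43 over 53 and cytosolic ribosomal protein genes 0.54 over 80, with 0 called in each by edgeR. Voom called 9 of these znf genes higher (6.25%) and 1 lower, 1 histone gene higher (1.89%) and 6 ribosomal protein genes higher (7.5%). Over all genes it called 2.79% higher and 0.213% lower. With single libraries left out, the histone median ranged from -0.04 (without 256c replicate 1) to 1.61 (without 256c replicate 3). That of the ribosomal protein genes ranged from -0.09 (without 1024c replicate 3) to 1.83 (without 256c replicate 3), so both could change sign. Heat shock genes (17 tested, 0.10), interferon response genes (6, 1.04) and adhesion genes (13, 0.32) had 0 calls by edgeR as well. Voom called the adhesion genes flrt3 and pcdh8 higher (15.4% of the list, beside 2.79% of all genes) and 0 heat shock or interferon genes. The interferon median was 0.38 without 1024c replicate 2 and 1.71 without 256c replicate 2. The heat shock median was -0.19 on nuclear totals and 0.26 on total counts with mitochondrial genes.

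Genes of the germ plasm, oocyte, mRNA decay and general machinery lists had medians between -0.46 and 0.19, around the 0.08 of all genes. Germ plasm genes, stored for the primordial germ cells, had a positive log2 fold change in 5 of 14 (median -0.46), and their summed level was 889 ± 18.7 CPM at 256c and 809 ± 154 CPM at 1024c (SD, n = 3). Ca15b, a germ plasm transcript, was the member with the smallest p, at 64.2, 48.8 and 189 CPM and then 49.5, 7.18 and 47.5 CPM (-1.50 ± 0.82, adjusted p 0.937, edgeR). Oocyte genes had a positive log2 fold change in 6 of 21 (median -0.36), the microRNA and mRNA decay genes in 11 of 32 (-0.22), mitochondrial ribosomal protein genes in 21 of 55 (-0.21), nuclear respiratory chain genes in 31 of 57 (0.15), splicing factors in 42 of 60 (0.19) and Mediator and TFIID subunits in 21 of 42 (0). Of these medians all but that of the mitochondrial ribosomal protein genes changed sign under another scaling. Ago2, the Argonaute protein that carries microRNAs, had 6.02, 13.9 and 46.9 CPM and then 30.6, 144 and 108 CPM, and voom called it (adjusted p 0.00905) where edgeR did not (2.07 ± 0.76, adjusted p 0.770).

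**Figure D4:**
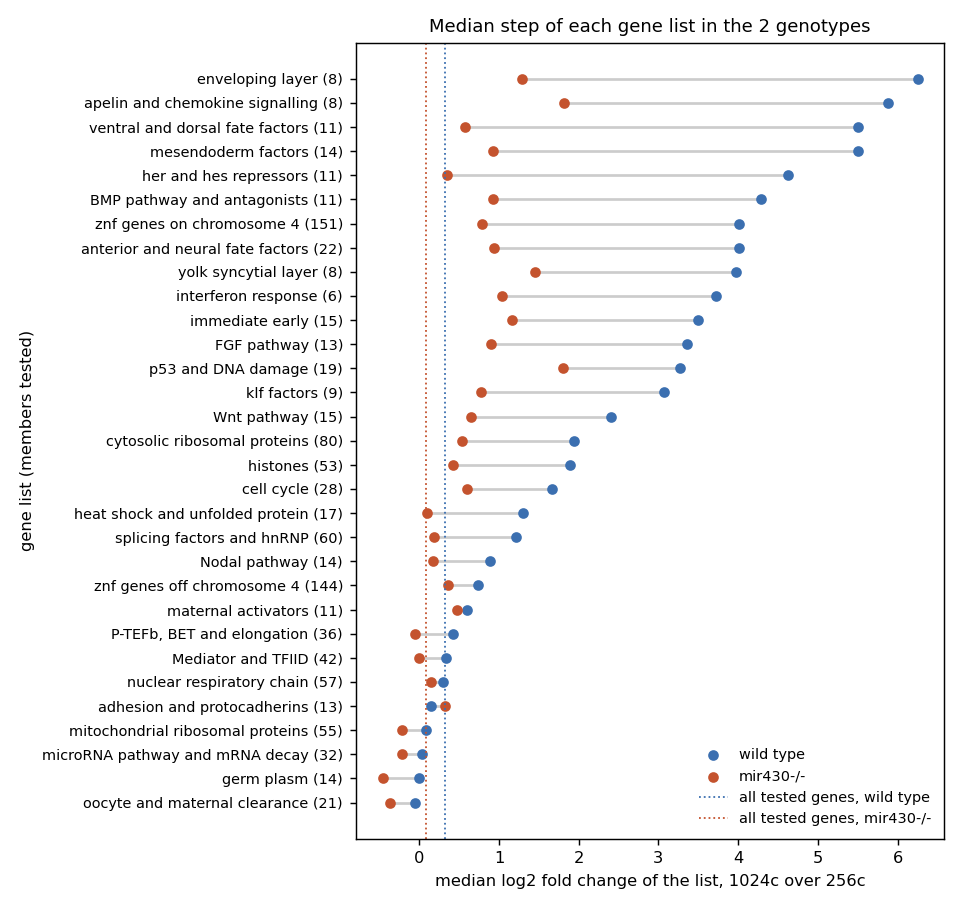
Median log2 fold change from 256c to 1024c of each gene list with at least 5 tested members, in wild type and in mir430-/- embryos, with the number of members tested in brackets and dotted lines at the medians of all tested genes (0.32 and 0.08). The mutant medians lie between -0.46 and 1.82 and the wild type medians reach 6.25.

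Genes that DESeq2 called in the mutant were picked here after their values were seen. Mex3b, an RNA-binding protein gene, had 12.1, 27.9 and 25.4 CPM at 256c and 29.1, 448 and 237 CPM at 1024c. Has2, the hyaluronan synthase of migrating mesoderm, had 4.01, 8.37 and 17.6 CPM and then 18.9, 282 and 119 CPM. Both were higher in all 3 libraries at 1024c than in any at 256c, with log2 fold changes of 3.43 ± 0.93 and 3.79 ± 1.06 (adjusted p 0.74 in edgeR and 0.0401 in DESeq2), and both rose in wild type. Notch3, a Notch receptor gene, had no count at 256c and 11.7, 120 and 2.88 CPM at 1024c, at least 19.2-fold higher against the floor of 3 counts.

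The others included sytl5, a synaptotagmin-like gene, at 8.03, 12.6 and 19.5 CPM and then 13.1, 168 and 181 CPM, and prdm2b, a PRDM family gene, at 6.02, 8.37 and 19.5 CPM and then 17.5, 232 and 61.9 CPM. Rgs12b, a regulator of G protein signalling, had 32.1, 26.5 and 95.7 CPM and then 216, 2678 and 80.6 CPM. Replicate 2 was the highest library at 1024c in 16 of the 18 genes called, against 35% of all tested genes. The stages did not overlap in 9 of the 18, against 2.67% of all tested genes higher and 2.57% lower without overlap. The 18 were called on these same libraries, so these counts also reflect how they were chosen. The remaining named genes with higher levels were nav2b, pyyb, kazald2, slc30a1a and txnipa, whose replicate 2 levels at 1024c were 414, 306, 148, 170 and 483 CPM against 54.7, 20.1, 8.63, 27.3 and 40.3 CPM in replicate 3.

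Pgap4, whose product acts on glycosylphosphatidylinositol anchors, was the 1 gene called lower. It had 22.1, 58.6 and 95.7 CPM at 256c and 11.7, 7.18 and 8.63 CPM at 1024c, without overlap. Its log2 fold change was -2.65 ± 0.60 (adjusted p 0.680 in edgeR, 0.0401 in DESeq2 and 0.0261 in voom), against 0.32 in wild type. Of genes that voom called lower, gtf3aa, which encodes the 5S rRNA factor TFIIIA, had 50.2, 57.2 and 54.7 CPM and then 43.7, 7.18 and 1.44 CPM (voom adjusted p 0.00905). The 3 libraries at 256c were close together for gtf3aa and the 3 at 1024c were not.

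Voom weighted the libraries by how closely they followed the group means. At 256c the weights were 0.445, 3.37 and 0.479, so the level there came mainly from replicate 2, and at 1024c they were 0.238, 0.837 and 1.14. Of its 367 higher genes, 83 (22.6%, against 6.39% of all tested genes) were among the 842 that rose in wild type, which is 9.86% of those 842. The stages did not overlap in 48 of the 367, which were called on the same libraries. Over all tested genes, 2.67% were higher without overlap. Its calls fell on 40 higher members and 1 lower member of the gene lists. The higher ones were 4% of the 999 list members tested, beside 2.79% of all genes. They included 6 of 80 cytosolic ribosomal protein genes (7.5%), 9 of 144 znf genes off chromosome 4 (6.25%) and 5 of 151 on it (3.31%).

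Replicate 2 at 1024c was high in genes of the p53 response, in which DNA damage stabilises p53 and induces its targets. Over all tested genes, 386 (2.93%) were at least 8-fold higher there than in replicate 3 of the same stage, with at least 20 CPM, and 177 (1.34%) were as much lower. Of the 19 tested p53 and DNA damage genes 8 were in the first group and 0 in the second, and of 15 immediate early genes 3 and 0. The excess was not particular to these lists. The first group also held 3 of 8 apelin and chemokine genes, 2 of 8 enveloping layer genes, 2 of 6 interferon response genes and 2 of 3 late differentiation markers. The second group held 0 of each. Of 17 heat shock and unfolded protein genes 0 were in either group. Their summed level was 1706 CPM in replicate 2 and 1929 CPM in replicate 3 at 1024c. Foxo3b, a forkhead stress factor, had 231, 188 and 359 CPM at 256c and 853, 5318 and 43.2 CPM at 1024c. Mdm2, the ubiquitin ligase for p53, had 432, 306 and 838 CPM and then 884, 4897 and 142 CPM. Sesn1, a sestrin, had 281, 349 and 613 CPM and then 758, 5076 and 220 CPM. Replicate 3 at 1024c was the lowest of the 6 libraries for all 3 genes.

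Fosab, an AP-1 subunit gene, had 201, 183 and 348 CPM and then 360, 3896 and 46.0 CPM, and jun had 44.2, 29.3 and 58.6 CPM and then 118, 744 and 27.3 CPM. The apelin receptor gene aplnrb had the same order of libraries at 1024c, at 2247, 1963 and 3468 CPM and then 4017, 22030 and 929 CPM. Atm, the kinase that senses double-strand breaks, was the p53 list member with the smallest p, at 6.02, 6.98 and 17.6 CPM and then 20.4, 136 and 18.7 CPM (2.49 ± 0.85, adjusted p 0.750, edgeR). The p53 list had a median of 1.80 and the immediate early list 1.16, and without replicate 2 at 1024c these were 0 and 0.20. Summed p53 list levels were 3564, 6089 and 16310 CPM at 256c and 7470, 37280 and 9137 CPM at 1024c. The part of these genes in the high levels that the same library showed for krt8, foxi1, tbx16 and the genes called by DESeq2 was not tested.

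**Figure D5:**
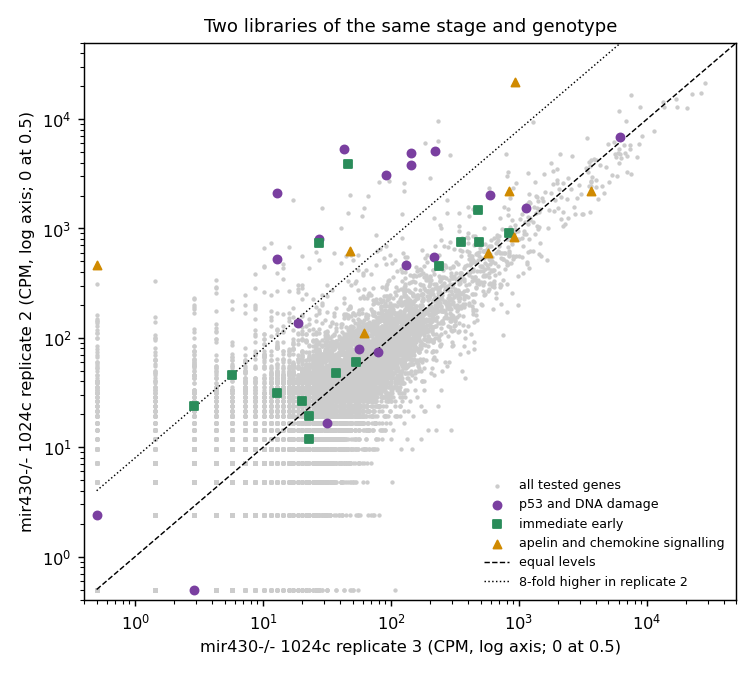
Level of each tested gene in mir430-/- 1024c replicate 2 (vertical) against replicate 3 (horizontal), CPM on log axes with 0 drawn at 0.5. Members of 3 lists are marked, the dashed line is equality and the dotted line an 8-fold higher level in replicate 2, which 8 of 19 p53 and DNA damage genes, 3 of 15 immediate early genes and 3 of 8 apelin and chemokine genes exceeded.

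Genes whose stages did not overlap in the mutant are described by their structure, with no test. The 352 higher genes had a median span of 17902.5 bases and 8 merged exons, 4.26% had a single exon and 7.67% lay on chromosome 4. For all tested genes these were 17190 bases, 9 exons, 3.68% and 6.48%. The 338 lower genes had a median span of 18814.5 bases, 1.18% with a single exon and 2.66% on chromosome 4, both shares below those of all tested genes. The genes that rose in wild type were shorter, with a median span of 8807.5 bases, 5 merged exons, 11.4% with a single exon and 16.5% on chromosome 4. Among the 352, replicate 2 was the highest library at 1024c in 68.5% (all tested genes 35%). Positions, exons and chromosomes are those of the deposited annotation on GRCz11.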

How the data were processed

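Whole-number counts per gene and library were made by the authors and deposited without normalization, in a table of 32520 genes with coordinates. The submitters' processing notes name the build GRCz11 and, with no version or role, DESeq2, featureCounts, HISAT, Picard, SAMtools and Trimmomatic. Column headings call the counts filtered without saying how, so whether they hold all reads or converted reads is unknown. The members and gene lists were chosen with earlier results of these data known, so lists are described and not tested.

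Mitochondrial genes (37) were removed, and library size was the nuclear count. The 24 IAA libraries in 8 groups entered 1 edgeR model (edgeR 4.0.16, limma 3.58.1, R 4.3.3) with TMM scaling, filterByExpr (13168 genes kept), a robust quasi-likelihood fit and Benjamini-Hochberg adjustment at 0.05. The contrasts were the mutant step, the wild type step and their difference. CPM values are scaled by TMM, and those of the 6 mutant libraries carry factors from 0.75 to 1.93. Standard errors of log2 fold changes come from the quasi-F statistic. DESeq2 was version 1.42.0. The scripts were tested on simulated data.

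Genes were to be named if called without overlap at 5 CPM or more, and cdk9, nanog, pou5f3, sox19b, gata2a, vox, krt8, tdgf1, zic2b, her7 and summed mir430 always. With 0 calls, the list members with the smallest p, those called by DESeq2 or voom and other examples were named after their values were seen. Replicates of 1 group differed by 13.1 to 32.6 times counting noise (chi-square per degree of freedom), so none was a copy of another. Same-numbered mutant libraries had deviation correlations of 0.74, 0.06 and 0.49, and differently numbered ones -0.69 to 0.40. The same-numbered value was the largest for each library at 256c, but for replicate 2 it was near 0. Numbers were not taken as pairs in the main fit, and fits with the replicate number as a block are given below. Promoter letters were not searched here. The 4 libraries without IAA and the authors' deposited comparisons were not used.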

Additional observations from a re-analysis of the deposited data

How the results depend on the processing

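The counts of called genes in the mutant step depended on the tool and the filter. Against 0 higher and 0 lower, DESeq2 gave 17 and 1, voom with quality weights 367 and 28, and edgeR without the low-count filter 85 and 1, and called list members numbered 2, 41 and 4. Of the 41 under voom, 40 were higher, 4% of the 999 list members tested, beside 2.79% of all genes. For the difference from the wild type step, DESeq2 gave 1 higher and 191 lower, no low-count filter 1 and 254, and total counts with mitochondrial genes 114 lower. The cause was not tested. Single libraries were left out in the main edgeR setting only, not with the tools and settings that made calls. This gave 0 calls in each direction for the mutant step and for the difference. The same held without replicate 1 of both mutant stages, an alternative chosen after seeing the data. With the replicate number as a block (replicate block) the calls were 0 in both directions, also in a fit of only the 6 mutant libraries, which was chosen after seeing the data, and replicate 2 did not correlate above 0.1 with its own number.

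The nuclear share difference of 1.09 percentage points was -0.269 without 256c replicate 1 (exact permutation p = 0.9) and -0.0104 without 1024c replicate 1 (p = 1), over a range of -0.269 to 2.23. The log2 fold change of her7 was -0.13 on nuclear totals, -0.08 on total counts with mitochondrial genes and -0.39, -0.11, -0.09 and -0.33 without 256c replicates 1 and 2 and 1024c replicates 2 and 3, over a range of -0.39 to 1.2. That of vox was -0.26 without 256c replicate 1 and -0.21 without 1024c replicate 3 (up to 1.85), that of tdgf1 -0.33 without 1024c replicate 3 (up to 0.8), and that of kdm6bb, a histone demethylase gene, -1.59 without 1024c replicate 2 (up to 6.82). That of cdk9 was 0.52 on total counts with mitochondrial genes. With libraries left out it ranged from -0.67 to 0.22, being 0.02 without 256c replicate 3 and 0.22 without 1024c replicate 2. The median of all genes was -0.17 on nuclear totals and 0.28 on total counts with mitochondrial genes, against 0.08. Recomputed values covered 48 log2 values. These were of the genes named always, those called by DESeq2, the list members with the smallest p, and the step differences of net1, klf2a, foxd5 and sox19a. Of 782 recomputed values, 715 kept their direction and side of the threshold, 54 passed it and 13 reversed. None had passed in the main setting. All but the genes named always were picked on these same data, DESeq2 calls among them, so these counts also reflect how they were chosen. The 6 mutant libraries held at most 861335 nuclear counts, and the median standard error of the mutant step was 0.80 on the log2 scale. The wild type libraries of the same stages held at most 760011, and the median standard error of their step was 0.83. The part of depth in these errors was not tested.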
